A study of Mus musculus with 2 samples.

Results

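The genes described here are 43 named genes of the neural lineage, 16 that mark neural stem and progenitor cells and 27 that mark neurons. They were taken by name, out of 21774 protein-coding genes, from a list chosen with earlier results of these data known. For each, KMT2D peaks were collected whose summit, the base of highest ChIP signal, lay inside the gene or within 50 kb of it on the mouse build mm10. Of the 3738 peaks in the authors' list, 15 met this rule. The data come from HT22 cells, an immortalised mouse hippocampal line, labelled as a clone of wild-type genotype and sampled at 70% confluency. One library was precipitated with an anti-KMT2D antibody (Millipore ABE1867), and the other was input chromatin of the same genotype, with no antibody. Cells whose KMT2D lacks its SET methyltransferase domain, named in the design, were not analysed here. Neither library had a replicate. Intervals below are 95% intervals for counting error only, and no difference between gene groups was tested. Expression was not measured, so the labelled hippocampal origin could not be checked against marker transcripts.

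KMT2D adds methyl groups to histone H3 at lysine 4 and is best known for monomethylation at enhancers and for a part in cell differentiation. Neural progenitors are held in an undifferentiated state by SOX and PAX factors and by Notch signalling, in which the cleaved receptor and RBPJ switch on HES repressors that hold back proneural bHLH factors. When these factors prevail, the cell turns on a neuronal programme of microtubule proteins, neurofilaments, synaptic vesicle proteins and glutamate receptors.

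Of the 16 progenitor genes, 6 (37.5%, Clopper-Pearson interval 15.2 to 64.6) had a summit inside or within 50 kb, and they held 9 peaks. Of the 27 neuron genes, 4 (14.8%, 4.19 to 33.7) did, with 6 peaks. Among all protein-coding genes 24.9% had a summit in such a window, which lies inside both intervals. The 6 progenitor genes were Vim, Nes, Sox9, Hes1, Hes6 and Msi1, and the 4 neuron genes were Cux1, Gria1, Camk2a and Grin1. For only 6 of these 10 was the member itself the nearest protein-coding gene to a summit. They were Vim, Nes, Sox9 and Hes1 (4 of 16 progenitor genes, 25%, 7.27 to 52.4) and Cux1 and Gria1 (2 of 27 neuron genes, 7.41%, 0.910 to 24.3). Of all protein-coding genes, 10.6% were the nearest to a summit within 50 kb. Close to the ends, within 2 kb, lay a summit at 2 progenitor genes, Vim and Sox9, and at no neuron gene, where 5.08% of all genes had one. With 27 genes, 0 hits leave room for a true share as high as 11.1%, so a shortage among neuron genes was not detectable here.

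**Figure D1:**
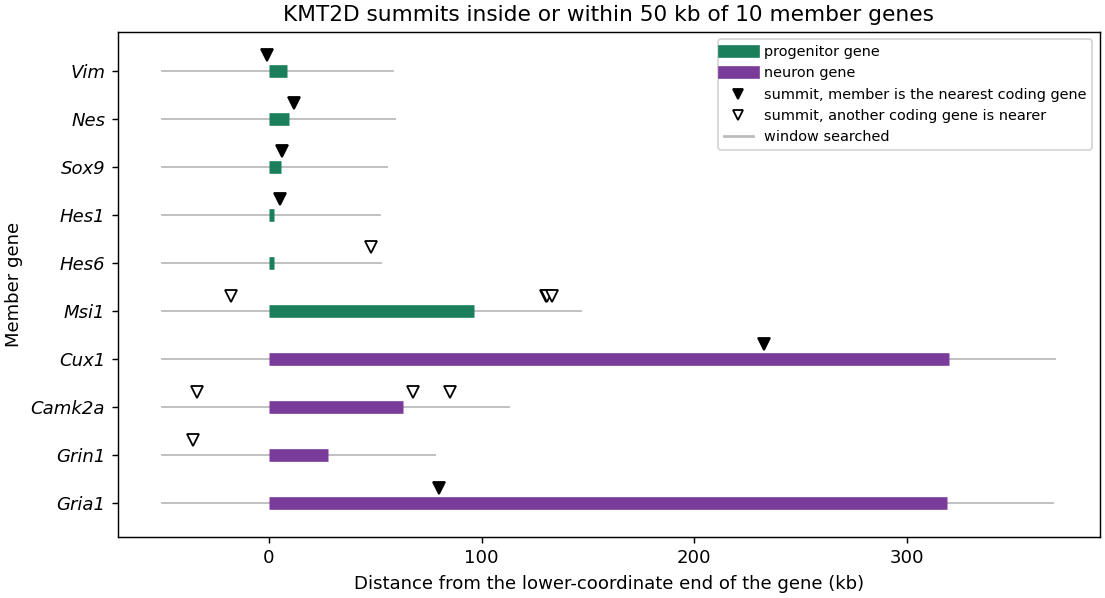
Positions of the 15 KMT2D summits (triangles) along the 10 member genes that had one, in kb from the lower-coordinate end of each gene, with the gene as a bar and the searched window as a grey line. Filled triangles mark the 6 summits for which the member was the nearest protein-coding gene, and open triangles the 9 for which another gene was nearer. The 4 filled summits of progenitor genes sit just outside short genes, while those of Cux1 and Gria1 sit deep inside long ones.

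To show sequence at the starts of some genes, start-site windows of 300 bases (250 before the start, 50 after) were read from RefSeq, build GRCm38.p6. Vim and Nes are shown because they are the filament genes with a peak of their own, and Tubb3 is a neuronal tubulin gene with none. No peak overlapped the windows of these 3 genes. In these 3, capitals mark matches to the CCAAT box (CCAAT) and the GC box (GGGCGG) on either strand; the AP-1 motif TGANTCA was searched too and had no match in them. The windows are chr2:13574061-13574360 (+) for Vim, chr3:87970843-87971142 (+) for Nes and chr8:123411303-123411602 (+) for Tubb3. Triap1, at chr5:115340981-115341280 (+), and Tmem203, at chr2:25255189-25255488 (+), are not members. They are shown because their start sites lie under a peak that was counted for Msi1 and for Grin1, and in them capitals mark the bases that the peak covers.
Vim: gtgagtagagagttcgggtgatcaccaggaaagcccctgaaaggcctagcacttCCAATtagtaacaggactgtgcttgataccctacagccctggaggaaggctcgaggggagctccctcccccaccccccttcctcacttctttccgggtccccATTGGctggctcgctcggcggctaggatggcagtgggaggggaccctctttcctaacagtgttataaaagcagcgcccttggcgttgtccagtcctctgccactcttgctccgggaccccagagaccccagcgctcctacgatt
Nes: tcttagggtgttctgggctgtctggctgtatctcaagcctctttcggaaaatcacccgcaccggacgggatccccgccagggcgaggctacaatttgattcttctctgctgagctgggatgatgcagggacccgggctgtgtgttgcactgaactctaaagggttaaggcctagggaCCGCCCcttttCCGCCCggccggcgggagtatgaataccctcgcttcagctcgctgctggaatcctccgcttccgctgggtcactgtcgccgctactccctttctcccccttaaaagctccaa
Tubb3: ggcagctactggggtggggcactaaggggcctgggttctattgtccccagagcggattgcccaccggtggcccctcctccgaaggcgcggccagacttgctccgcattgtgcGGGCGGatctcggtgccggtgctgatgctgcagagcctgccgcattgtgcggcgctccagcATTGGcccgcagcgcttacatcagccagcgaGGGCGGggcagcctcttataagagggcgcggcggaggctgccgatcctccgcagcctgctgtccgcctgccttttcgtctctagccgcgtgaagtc
Triap1: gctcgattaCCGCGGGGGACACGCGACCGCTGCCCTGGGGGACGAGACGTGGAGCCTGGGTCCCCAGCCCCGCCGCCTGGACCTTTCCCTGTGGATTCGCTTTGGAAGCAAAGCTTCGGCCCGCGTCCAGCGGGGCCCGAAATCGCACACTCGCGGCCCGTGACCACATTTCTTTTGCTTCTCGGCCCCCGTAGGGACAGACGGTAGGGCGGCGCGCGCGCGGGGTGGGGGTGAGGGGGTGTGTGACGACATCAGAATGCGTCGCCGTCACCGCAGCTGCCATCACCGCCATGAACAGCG
Tmem203: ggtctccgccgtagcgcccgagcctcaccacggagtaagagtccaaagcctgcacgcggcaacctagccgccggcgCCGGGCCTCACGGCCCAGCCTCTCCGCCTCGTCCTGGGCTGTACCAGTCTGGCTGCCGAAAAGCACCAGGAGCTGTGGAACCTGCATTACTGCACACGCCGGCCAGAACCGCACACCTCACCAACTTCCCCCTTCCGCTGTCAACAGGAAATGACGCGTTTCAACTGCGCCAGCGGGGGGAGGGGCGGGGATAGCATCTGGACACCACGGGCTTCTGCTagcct

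No peak overlapped a start-site window of a member. RefSeq windows were matched for 13 of 16 progenitor genes (16 windows) and 18 of 27 neuron genes (22 windows). Sox9, Hes1, Msi1, Snap25, Gap43, Stmn2, Nefl, Nefm, Calb1, Calb2, Camk2a and Gria1 had none. The Vim window came closest, with 173 bp between it and the edge of the Vim peak. It carried 2 CCAAT matches and no GC box, Nes carried 2 GC boxes and no CCAAT, and Tubb3 carried both (1 CCAAT, 2 GC boxes). CCAAT was in 11 of 16 progenitor windows and 9 of 22 neuron windows, against 37.4% of all 32851 windows. Those windows, used for every comparison here, came from 27025 genes and were not limited to protein-coding ones, as the members are. The GC box was in 7 of 16 and 13 of 22, against 35.7%. The E-box (CANNTG), the letters that proneural bHLH factors read, was in 9 of 16 and 9 of 22, against 72.3%. RBPJ's TGGGAA was in 5 of 16 and 3 of 22, against 25.6%. TGANTCA was in both Prom1 windows and in no neuron window, against 7.81%. TGACGTCA, the cAMP response element, was in 1 window of Pax6 and in that of Syn1, against 1.79%. A loose SRF pattern, CC and GG with any 6 bases between, was in 12 of 16 and 15 of 22, against 73.3%. Both groups of windows were richer in G and C than most, with medians of 58.7% (progenitor) and 59.5% (neuron) against 52.7%. They held a median of 17 and 15 CpG pairs, against 7.

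The filament genes of progenitors, Vim and Nes, each had 1 peak of their own. Vim encodes vimentin, an intermediate filament protein of mesenchymal cells and radial glia. Its peak at chr2:13573287-13573888 had its summit 694 bp before the start site and stopped 423 bp short of it. The fold, the ratio of ChIP to background signal that the authors' caller gave, was 7.33 (exact Poisson interval 5.35 to 9.82), from 43 ChIP fragments over a background of 5.003. That placed it above 89.1% of all peaks, with a −log10 q of 21.2. Nes encodes nestin, the filament protein most used to mark neural stem cells. Its peak, chr3:87982905-87983542, lay on the far side of the gene, 2596 bp past the last base and 11954 bp from the start. With 33 fragments over 6.05 its fold was 4.82 (3.36 to 6.71), a little over the list median of 4.47, and its −log10 q was 10.4. At 602 and 638 bp, the Vim and Nes peaks were the widest of the 15, where the median over all peaks was 295 bp.

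Among the 4 SOX factors Sox9 alone had a peak. SOX9 keeps neural stem cells and takes part in gliogenesis. The peak lay at chr11:112788470-112788713, 751 bp above the higher-coordinate end of the gene. It was weak, with 22 fragments over 6.49, a fold of 3.07 (1.98 to 4.58) and a −log10 q of 2.95. Only 13.3% of all peaks had a lower fold. Sox2, the central factor of neural stem cells, had its nearest summit 316 kb away, and Sox4, which acts in newborn neurons, 404 kb away. Sox11, the close relative of Sox4, had none within 2090 kb. These 3 genes thus lay farther from a summit than the median protein-coding gene, at 201 kb.

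The Notch branch held the strongest member peak, at Hes1, the repressor that Notch signalling turns on in progenitors. It spanned chr16:30070211-30070771, with its summit 2598 bp above the higher-coordinate end of the gene and inside the long non-coding RNA gene Gm32998. From 41 fragments over 3.86 its fold was 8.64 (6.26 to 11.6), above 94.6% of all peaks, with a −log10 q of 23.5. Hes6, which counters Hes1, had a summit 45390 bp before its start with a fold of 4.35 (3.15 to 5.87). That summit (chr1:91459233-91459593) lay 77 bp from the clock gene Per2. Hes5, another Notch target, was 168 kb from a summit, and the receptor gene Notch1 was 310 kb away.

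All 4 peaks of the Msi1 window lay within 2 kb of an end of another protein-coding gene. Msi1 encodes Musashi, an RNA-binding protein of neural stem cells, and had no summit closer than 17818 bp. The first of its 4 peaks (chr5:115340990-115341475, fold 2.57, 1.71 to 3.72) had its summit 10 bp after the start of Triap1, and it covered the whole start-site window of Gatc, on the opposite strand, as well. A pair followed in Sirt4. One, at chr5:115489306-115489530 (fold 3.99, 2.61 to 5.86), was 32 bp from the small nuclear RNA gene Gm24265, and the next, at chr5:115489779-115490178 (2.61, 1.80 to 3.68), 221 bp from the small nuclear RNA gene Gm24407. The last, at chr5:115491877-115492218 (3.22, 2.29 to 4.40), lay 91 bp from an end of Pxn, which encodes paxillin. Their backgrounds, from 5.27 to 11.2 fragments, included the 2 highest of the 15 peaks.

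The cortical progenitor factors were far from any peak. Eomes, which marks intermediate progenitors, was 1410 kb from a summit. Pax6 and Emx2, which pattern the early forebrain, were both 1480 kb away. Fabp7, the lipid-binding protein of radial glia, was 817 kb away, and Prom1, the membrane protein CD133, 125 kb.

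**Figure D2:**
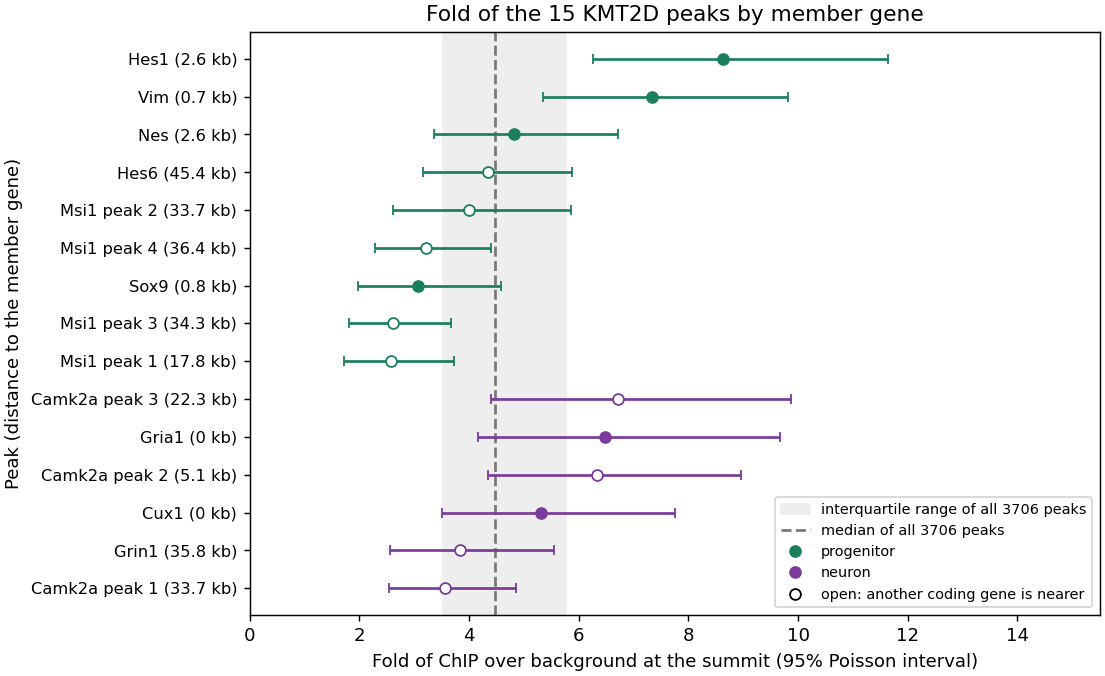
Fold of ChIP over background for the 15 peaks (points) with 95% Poisson intervals (bars), grouped as progenitor and neuron genes, with the distance to the member in brackets. The dashed line is the median of all peaks on chromosomes (4.47) and the band their interquartile range (3.53 to 5.77). The intervals of 2 peaks, Hes1 and Vim, lie wholly above the median, and 3 of the 4 Msi1 peaks have intervals wholly below it.

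Of the 6 neuron peaks, the pair with the member as the nearest gene lay inside long genes. Cux1 encodes a homeodomain factor of upper cortical layers that many other cell types also use. Its summit, at chr5:136480667-136480878, lay 85189 bp past the listed start, with a fold of 5.32 (3.51 to 7.75) from 25 fragments over 3.89. Gria1 encodes an AMPA-type glutamate receptor subunit. The Gria1 peak, chr11:57091304-57091521, lay 79878 bp from the lower-coordinate end with a fold of 6.49 (4.17 to 9.68), from 22 fragments over 2.55. Both were narrow, at 212 and 218 bp, and had backgrounds below the list median of 6.05.

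Camk2a, the kinase gene most used to mark excitatory forebrain neurons, had 3 peaks in its window and none inside. The strongest, on chromosome 18 with its summit at 61010447, lay inside the amino acid transporter gene Slc6a7 and had a fold of 6.72 (4.40 to 9.87). The closest, with its summit at 60993251, was 5099 bp from Camk2a but 2125 bp from Slc6a7, with a fold of 6.34 (4.34 to 8.96). The weakest, with its summit at 60891648, was 33659 bp away on the other side with a fold of 3.56 (2.55 to 4.86). Grin1, which encodes the obligatory NMDA receptor subunit, had a summit 35756 bp past the end of the gene (chr2:25255265-25255483, fold 3.83, 2.55 to 5.54). It lay between the back-to-back starts of Ndor1 and Tmem203, 7 and 18 bp before them.

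The remaining 23 of 27 neuron genes had no summit in their windows, and neither did 16346 of all 21774 protein-coding genes. The median protein-coding gene was 201 kb from a summit. The proneural factors Neurod1, Neurod2, Neurod6 and Neurog2, which drive cells into the neuronal fate, were 1120, 336, 339 and 375 kb from the nearest one. Of the other layer and hippocampal transcription factors, Prox1, the marker of dentate granule cells, was 390 kb away, Bcl11b 271 kb and Tbr1 210 kb. No cytoskeletal or growth gene came nearer than Tubb3, the neuronal tubulin, at 129 kb. Dcx, the doublecortin gene of migrating neurons, lay 282 kb away, Gap43 1020 kb, Nefm 1040 kb, Nefl 1070 kb, Stmn2 1190 kb and Map2 1950 kb. Nefl and Nefm, which encode neurofilament subunits and neighbour each other, share their nearest summit. Of the genes for release of transmitter, Syp was 61.1 kb away, Syn1 172 kb and Snap25 3320 kb, the farthest of all members. Dlg4, which encodes the scaffold PSD-95, was 144 kb away. Among genes for RNA-binding proteins, Rbfox3 (the antigen NeuN) was 50.9 kb away and Elavl3 90.8 kb. The calcium-binding protein genes Calb1 and Calb2 were 51.4 and 364 kb away. The guidance receptor gene Nrp1 was 85.5 kb from a summit to which it was the nearest gene.

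**Figure D3:**
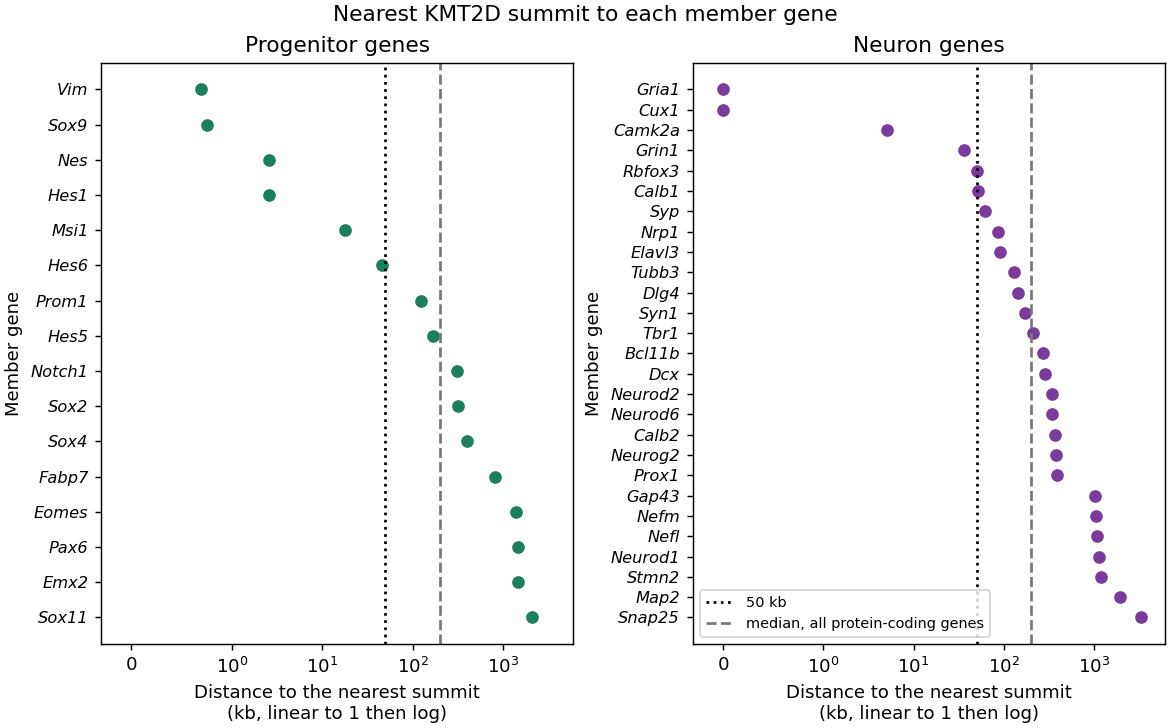
Distance from each of the 43 genes to its nearest KMT2D summit (points; 0 means inside the gene), on an axis that is linear to 1 kb and logarithmic beyond. The dotted line is the 50 kb limit and the dashed line the median of all protein-coding genes (201 kb). Progenitor genes leave a gap between 45.4 and 125 kb, whereas 5 neuron genes fall between 50.9 and 90.8 kb.

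The 50 kb limit had neuron genes close outside it, but no progenitor gene. Inside, the farthest were Hes6 (progenitor) at 45.4 kb and Grin1 (neuron) at 35.8 kb. Just outside were the neuron genes Rbfox3 at 50.9 kb and Calb1 at 51.4 kb, while the first progenitor gene outside was Prom1 at 125 kb. With 100 kb, 9 neuron genes (33.3%) had a summit and the progenitor count stayed at 6 (37.5%), against 35.8% of all protein-coding genes. With 10 kb, 3 neuron genes (11.1%) and 4 progenitor genes (25%) had one, against 12.1%. The median distance to a summit was 239 kb for progenitor genes and 271 kb for neuron genes. More than 1 Mb from any summit were 4 progenitor genes (25%) and 7 neuron genes (25.9%), against 16.8% of all protein-coding genes.

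Windows differed in size because the genes did. The median gene length was 7.31 kb for the progenitor group and 37.1 kb for the neuron group, against 17.2 kb for all. Of 12 progenitor genes under 10 kb, 5 had a summit, and of 6 such neuron genes none did, where 21.3% of all genes of that length had one. Between 10 and 50 kb the counts were 0 of 2 and 1 of 8, against 27%. At 50 kb and more they were 1 of 2 and 3 of 13, against 27.1%. Both groups had a median of 1 other protein-coding gene in the window, where all genes had 3. Per Mb of window, progenitor genes had 4.63 peaks (Poisson interval 2.12 to 8.79) and neuron genes 1.23 (0.452 to 2.68), against 1.91 over all protein-coding windows. The 4 peaks around Msi1 weighed heavily, and without that gene the progenitor value was 2.86 (0.929 to 6.68). Without Camk2a the neuron value was 0.637 (0.131 to 1.86). These Poisson intervals take every peak as independent. Peaks that share the window of 1 gene, as around Msi1 and Camk2a, may not be, so the intervals can be too narrow. They were not used to call a difference from all protein-coding windows. The X chromosome, which had 54 peaks in all, carries Dcx, Syn1 and Syp, and without them 4 of 24 neuron genes (16.7%) had a summit.

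Folds of the 15 peaks ran from 2.57 to 8.64, within the range of 1.07 to 23.5 of all peaks. Progenitor peaks had a median fold of 3.99 (exact interval of the median 2.61 to 7.33) and neuron peaks of 5.83 (3.56 to 6.72), beside 4.47 for all. The order of the groups depended on which peaks were counted. Without Msi1 the progenitor median was 4.82, and without Camk2a the neuron median was 5.32. With only the peaks nearest to the member, the medians were 6.08 (progenitor) and 5.90 (neuron). Above the list median were 3 of 9 and 4 of 6, and past the 75th percentile by fold 2 (Hes1 and Vim) and 3 (Gria1 and a pair by Camk2a). The 6 peaks for which the member was the nearest gene had folds from 3.07 to 8.64 with backgrounds from 2.55 to 6.49. The 9 others had folds from 2.57 to 6.72 with backgrounds from 2.72 to 11.2. Of those 9, all 5 progenitor peaks and 1 of 4 neuron peaks lay within 2 kb of an end of another protein-coding gene. Of these 5 progenitor peaks, 4 came from the Msi1 window alone. The same share was not counted over all peaks, so no contrast between the groups is drawn from it.

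Related genes outside the 43 were read from lists of gene names, which were chosen with earlier results of these data known. Of 33 further Notch pathway genes, 11 (33.3%, 17.96 to 51.8) had a summit within 50 kb, beside 24.9% of all genes. Hes7 (fold 9.89, 1145 bp away) and Maml1 (6.83, 42441 bp) had higher values but other genes nearer to those summits. Hes7 was the nearest gene to another of the 7 summits in its window. Maml3, a coactivator of Notch, and Rbpj, the DNA-binding partner of the receptor, had peaks inside the gene with folds of 5.82 and 5.59. Of 13 further SOX genes 3 had a summit, inside Sox5 (4.44), 140 bp from Sox12 (4.19) and 14631 bp from Sox15 (3.67, inside Eif4a1). Of 27 other progenitor genes 9 did (33.3%), with Hmga2 (7.80, inside), Gli3 (7.14, 11953 bp) and Zeb1 (6.27, 43608 bp) each the nearest gene, and Gli1 (8.51) 40639 bp from a summit inside Mbd6.

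Shares in the larger neuronal lists ran from 20% to 35.7%. Of 31 other proneural and neuronal transcription factor genes 9 had a summit (29.0%), and among these Dlx1 and Dlx2 shared the same one. The highest folds were those of Mef2c (7.20, inside), Zbtb20 (5.45, inside), Pou3f1 (4.93, 48355 bp, nearer to Fhl3) and Mef2d (4.72, inside). Of 28 synaptic vesicle and release genes 10 did (35.7%), and 3 (10.7%, against 10.6% of all genes) were the nearest gene to one: Bsn (5.03, inside), Syn3 (4.20, inside) and Syn2 (6.55, 34319 bp). Vamp2 (9.89, 32818 bp) had a higher fold at a summit nearer to Aloxe3, the same peak as that given for Hes7. Of 33 glutamate receptor and postsynaptic genes 9 did (27.3%). Camk2b, a sister of Camk2a, had the highest fold in that list, 10.3 (79 fragments), at a summit inside the gene. Next were Dlgap1 (6.27, inside), Camk2g (6.19, 446 bp, at a summit inside Ndst2) and Cacng2 (6.17, inside). Of 30 axon, microtubule and neurofilament genes 6 did (20%). Dpysl3 (5.95) lay 31305 bp from a summit nearer to Gm3650. Plxna2 (7.52), Plxna1 (5.87) and Nrp2 (4.88) held summits inside the gene. Nrp2 thus held a summit where its paralogue Nrp1, among the 43, did not. Of 13 neuronal RNA-binding protein genes 3 did, inside Celf2 (7.99), 44821 bp from Ptbp1 (6.22) and 41069 bp from Rbfox2 (4.79). The Ptbp1 summit was nearer to Med16, and the Rbfox2 summit lay inside Mb. Of 11 genes of REST, the repressor of neuronal genes in other cells, and its partners, 3 had a summit. They were Rcor2 (5.48, 216 bp), Ehmt2 (3.68, 47220 bp, nearer to Hspa1b) and Ctdsp1 (2.62, inside). Rest itself had none. The share of genes nearest to a summit, against 10.6% of all genes, rested on few genes per list. It was 21.2% for the Notch pathway (7 of 33), 15.4% for SOX factors (2 of 13) and 29.6% for other progenitor genes (8 of 27). For transcription factors it was 19.4% (6 of 31), for postsynaptic genes 18.2% (6 of 33) and for axon genes 16.7% (5 of 30). RNA-binding genes had 7.69% (1 of 13) and REST genes 18.2% (2 of 11). Differences between lists were not tested, and all genes were not matched to them by length or neighbouring genes.

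**Figure D4:**
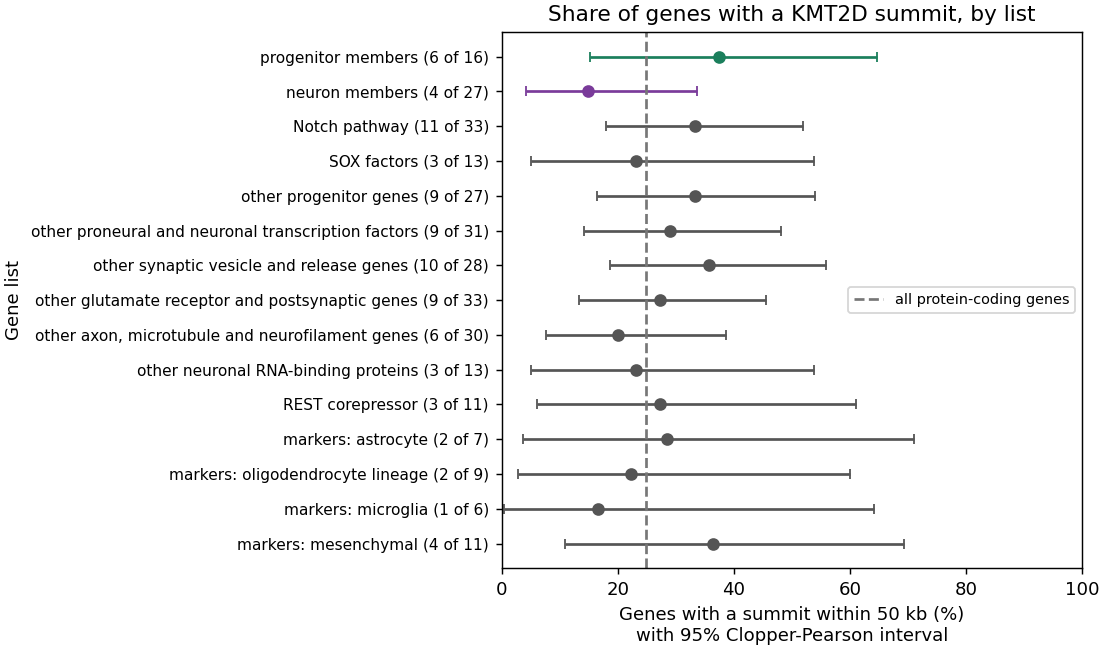
Percentage of genes with a KMT2D summit inside or within 50 kb (points) with 95% Clopper-Pearson intervals (bars), for the 2 member groups and 13 lists of related genes and cell type markers. The dashed line is the share of all protein-coding genes (24.9%), and every interval includes it.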

How the data were processed

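The authors deposited 1 peak list from the ChIP and the input library of wild-type HT22 cells. The submitters' processing notes name Bowtie2, Picard, MACS2 and the build mm10. Versions and settings were not given in the sources used here. Per the file's values and layout, the deposited columns are each peak's interval and summit, the fold (a ratio of ChIP to background), −log10 p-values and −log10 q-values, and a score (the −log10 q times 10, rounded down) that was not used.

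Of 3738 peaks, 3706 lay on chromosomes 1 to 19, X and Y and were placed against 21774 protein-coding genes of a RefSeq table (GRCm38.p6, the build of mm10). All 43 members matched, as did every gene of the other lists. Library totals were not given in the sources used here. ChIP fragments n and background b were solved from the fold, (n + 1)/(b + 1), and the Poisson p-value, and for 3690 peaks (98.7%) the p-value was met within 0.001 on the −log10 scale. The 3706 peaks had medians of 30 fragments and a background of 6.05. The solver was tested on simulated data. Intervals are exact Poisson (background held fixed), Clopper-Pearson, or order statistic intervals of a median, at 95%, for counting error only. A share of 0 is given the limit of 3 counts of the total. Python 3.11.15, numpy 2.4.6, scipy 1.17.1 and pandas 2.3.3 were used.

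The members and lists were chosen with earlier results of these data known. Every member is named; full values are given for the member peaks, and up to 4 genes of highest fold for each list, of which 1 is not reported here. Nrp2 beside Nrp1, and Rest, were singled out after their values were seen. Alternatives were other windows, whole peak intervals, stricter peaks, the nearest gene only, and genes or peaks left out.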

Additional observations from a re-analysis of the deposited data

How the results depend on the processing

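The main counts were 6 progenitor and 4 neuron genes with 9 and 6 peaks. Whole peak intervals, and peaks of background up to 20 fragments alone, left all 4 counts as they were, and leaving out peaks by small RNA genes (within 500 bp) lowered only the progenitor peaks, to 7. A 100 kb window gave 9 neuron genes with 13 peaks and 14 progenitor peaks. A 10 kb window gave 3 neuron and 4 progenitor peaks. Within 2 kb of an end were 2 progenitor genes with 2 peaks, and 0 neuron genes with 0 peaks. Keeping the strongest peaks (fold from the 75th percentile up) gave 2 progenitor genes with 2 peaks (median fold 7.98) and 2 neuron genes with 3 peaks. Keeping the peaks of higher −log10 q (from its median up) left 4 progenitor peaks. Counting only peaks nearest to the member left 4 progenitor peaks, and 2 neuron genes with 2 peaks. Leaving out Msi1 left 5 progenitor peaks and leaving out Camk2a 3 neuron peaks, both chosen after seeing the data, as was leaving out X-linked genes, which left all 4 counts unchanged. Much of this follows from fewer peaks or a different window; all genes moved too, to 35.8% at 100 kb and 7.38% for the strongest peaks. No paired analysis was possible because each group has 1 library. With a median of 30 fragments per summit, weak peaks such as Sox9 have folds known only to within 1.98 to 4.58, and sites below the authors' threshold are not listed.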

Other observations

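Some markers of other cell types also had summits within 50 kb, beside 24.9% of all protein-coding genes. Of 11 mesenchymal markers 4 did. Col1a2, which encodes a fibrillar collagen chain, had a peak 15518 bp away with a fold of 10.1 (57 fragments), higher than any peak of the 43 genes, and it was the nearest protein-coding gene. S100a4 and Col1a1 were also the nearest gene to a summit, and S100a4 had one within 2 kb of an end, but their strongest summits (6.74 and 4.82) lay nearer to other genes, as did the single one of Tagln (3.42). Of 7 astrocyte markers 2 did, Aldoc (4.53) and Aldh1l1 (4.43), 42756 and 42333 bp away with other genes nearer. Of 9 oligodendrocyte markers 2 did, Cspg4 (6.30), the nearest gene to a weaker one of its 3 summits, and Cnp (2.80), and of 6 microglial markers 1 did, Cx3cr1 (3.28). Whether peaks at marker genes go with expression of these genes was not tested.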
